A study of Mus musculus with 12 samples.

Results

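The adrenal genes measured here were 9 symbols of 35976 in the counts. The 4 adrenal cortex genes were *Cyp11b1*, *Cyp11b2*, *Cyp21a1* and *Mc2r*, and the 5 chromaffin genes were *Pnmt*, *Th*, *Dbh*, *Chga* and *Chgb*. The members were chosen by their symbols after an earlier look at adrenal marker values in these same libraries, so their levels and fold changes are given as a description and no test of them is read. All 9 had a row in each of the 12 libraries, and 8 passed the low-count filter of edgeR in each generation, *Cyp11b2* being the exception. RNA came from testes of Swiss (RjOrl) outbred mouse embryos taken at E15.5, and each library was 1 pool of testes of 3 embryos. F1 embryos were exposed in the womb, because their mothers were gavaged daily from E6.5 to E15.5 with the neonicotinoid insecticide thiacloprid (*thia*) at 6 mg/kg/day, or with the vehicle alone (dose 0). F3 embryos descended from such F1 embryos through males crossed to unrelated, untreated females and were not exposed themselves. The 4 groups, F1 control, F1 *thia*, F3 control and F3 *thia*, had 3 pools each. A pool is whole testis, so each value averages all its cell types and 3 embryos.

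The adrenal cortex makes corticosteroids from cholesterol. It shares the first enzymes of that pathway with the Leydig cells of the testis, but 21-hydroxylase and the 11-beta-hydroxylases turn the products towards corticosterone and aldosterone in place of testosterone, and the ACTH receptor places the pathway under pituitary control. Chromaffin cells of the adrenal medulla arise from the neural crest, make dopamine, noradrenaline and adrenaline from tyrosine in successive steps, and store them in dense core granules with chromogranins. The fetal mouse testis is known to hold a few steroidogenic cells with adrenal-like expression, and adrenal, gonad and kidney lie close together in the embryo.

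Total counts ran from 25081647 to 68996146 per pool with a median of 42665445, and 1 CPM (a count scaled to the library size, with TMM over the 12 pools) stood for 26.98 to 66.79 counts. Fits within each generation gave few calls with edgeR at the false discovery rates of the study, 2 of 19137 genes in F1 (0.0105%) and 0 of 18539 in F3 (0%), where 3906 genes had an unadjusted p under 0.05 and the Wald test of DESeq2 called 2262. The testis label was matched by its markers. Summed over 6 genes each, Sertoli cell markers lay between 448.9 and 1387 CPM and germ cell markers between 314 and 1034 CPM. Genes listed for fetal Leydig cells summed to between 520.6 and 1000 CPM, of which *Pdgfra* had the highest mean at 406.1 CPM. The germ cell gene *Dppa3* was the only gene of all the lists used here that edgeR called in a comparison within a generation. It was lower in F1 *thia* testis (log2 fold change -1.69, edgeR adjusted p = 0.0278). In F1, 4 of the 6 germ cell genes were lower at an unadjusted p under 0.05, where 4.13% of all genes were. In F3, 2 of the 6 were lower at that p, where 10.0% of all genes were. Without control replicate 2 or control replicate 3, edgeR called none of the germ cell genes in F1. With all pools, DESeq2 called 3 as lower in F1, where it called 0.525% of all its genes as lower, and none in F3. Between replicates of a group, the chi-square statistic per degree of freedom was at least 17.29, so that no 2 pools were repeats of 1 library. F3 *thia* replicate 2 stood apart from its replicates, at 90.71 and 100.9 against 36.23 between the other two, and without it edgeR called 1294 genes in F3. The study treated unrelated dams at each dose and ran the whole exposure and breeding 2 times, so that each generation came from 2 independent treatments. The labels do not say which litters or which treatment went into which pool. The p-values below measure the spread between these pools and take no account of treatment round or shared ancestry.

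Per kilobase of exon, the 9 genes fell into 3 tiers. *Cyp21a1* had the highest mean over the 12 pools at 9.38 CPM per kb, with a range of 4.53 to 24.99. *Cyp11b1* followed at 8.08 CPM per kb, with a range of 3.98 to 16.78, and these neighbours overlapped. The middle tier held *Chga* (mean 2.50 CPM per kb, range 1.99 to 3.03), *Mc2r* (mean 2.02, range 1.31 to 3.22) and *Pnmt* (mean 1.77, range 0.736 to 3.59), whose ranges also overlapped one another and lay below the lowest *Cyp11b1* pool. The lowest tier held *Th* (mean 0.273 CPM per kb), *Dbh* (0.144), *Chgb* (0.114) and *Cyp11b2* (0.108), none above 0.485 CPM per kb in any pool. The testis' own steroid genes stood far above. *Cyp11a1*, the side chain cleavage enzyme of all steroid-making cells, had a mean of 184.9 CPM per kb, and *Star*, which brings cholesterol into mitochondria, one of 102.7 CPM per kb.

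**Figure D1:**
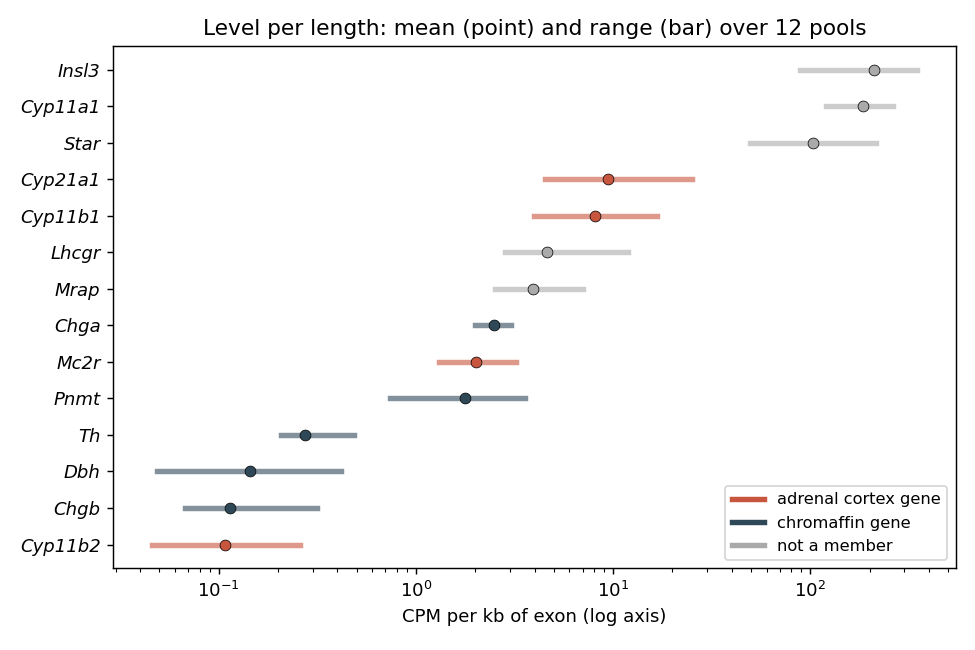
Mean level per length of the 9 adrenal genes (coloured) and of 5 testis or partner genes (grey), in CPM per kb of exon on a log axis. Points are means and bars run from the lowest to the highest of the 12 pools, and the cortex enzymes *Cyp21a1* (9.38) and *Cyp11b1* (8.08) lie below *Star* (102.7) and above the catecholamine genes *Th* (0.273) and *Dbh* (0.144).

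*Cyp11b1* encodes 11-beta-hydroxylase, which makes corticosterone, and lies on chromosome 15 of mm10 from 74834125 to 74841643 on the minus strand. *Cyp11b2*, from 74851010 to 74856318 on the same strand, encodes aldosterone synthase. The coding sequences, of 1503 and 1506 bases, were 87.1% identical and differed at 194 bases, with a longest identical run of 244 bases, and 171 of the 1407 stretches of 100 bases in *Cyp11b2* (12.2%) were also found in *Cyp11b1*. A read of 100 bases from such a stretch cannot be assigned to 1 gene of the pair by its own sequence. The libraries were paired-end, so its mate may still place it, and the share of reads affected was not measured. The first 120 coding bases of each gene are shown because they differ at only 2 bases, which are in capitals (chr15:74841493-74841612 and chr15:74856112-74856231, minus strand, mm10).
Cyp11b1: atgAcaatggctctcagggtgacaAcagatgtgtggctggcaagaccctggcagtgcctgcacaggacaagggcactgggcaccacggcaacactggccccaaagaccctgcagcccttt
Cyp11b2: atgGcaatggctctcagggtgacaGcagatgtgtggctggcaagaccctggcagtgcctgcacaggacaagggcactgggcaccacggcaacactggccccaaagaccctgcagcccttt

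In F1, the *Cyp11b1* level was 34.45, 29.18 and 22.61 CPM in the control pools and 18.88, 17.47 and 12.6 CPM in the *thia* pools. Every *thia* pool lay below every control pool. Mean levels were 28.74 ± 5.93 CPM in control and 16.32 ± 3.30 CPM in *thia* testis (SD, n = 3 each). The fitted log2 fold change was -0.81 (SE 0.18, edgeR). In F3, the level was 17.73, 25.09 and 27.51 CPM in control pools and 29.66, 18.64 and 53.11 CPM in *thia* pools, and the groups overlapped. The F3 log2 fold change was 0.53 (SE 0.36), and it was 0.04 without *thia* replicate 3, the pool with the highest level of all 12. In bulk RNA, fewer cells of a type and less RNA per cell cannot be told apart, here and for all genes that follow. The end of *Cyp11b1* overlaps *Gml2* on the opposite strand, whose level was 4.63 to 11.22 CPM. Whether the counting used strand is not stated. *Gml2* had log2 fold changes of -0.04 in F1 and -0.22 in F3.

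*Cyp11b2* gave 100 counts in the 12 pools together. The counts were 5, 11 and 2 in F1 control, 6, 3 and 7 in F1 *thia*, 10, 8 and 5 in F3 control, and 10, 5 and 28 in F3 *thia* pools. It made up 0.299 to 1.72% of the *Cyp11b1* and *Cyp11b2* counts. The lowest share, in F1 control replicate 1, had an exact (Clopper-Pearson) 95% interval of 0.0973 to 0.697%, and the highest, in F3 control replicate 1, one of 0.827 to 3.14%. F3 *thia* replicate 3 had the highest counts of both genes, with a share of 0.783% (0.521 to 1.13%). These intervals cover counting error only. *Cyp11b2* did not pass the low-count filter, and its level was not tested between groups.

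*Cyp21a1* encodes steroid 21-hydroxylase, which acts before *Cyp11b1* in the making of corticosterone. It lies on chromosome 17 from 34801348 to 34804561 on the minus strand. In F1, its level was 15.97, 24.85 and 16.42 CPM in control pools and 9.79, 15.66 and 9.69 CPM in *thia* pools. Each *thia* pool was below each control pool, the nearest being 15.66 against 15.97 CPM. The means were 19.08 ± 5.0 and 11.71 ± 3.42 CPM (SD, n = 3 each). The log2 fold change of -0.70 (SE 0.22) was -0.46 without control replicate 2. In F3, control pools had 11.38, 20.75 and 15.78 CPM and *thia* pools 17.15, 29.83 and 53.48 CPM. The F3 groups overlapped through *thia* replicate 1, and the log2 fold change of 1.07 (SE 0.41) was 0.55 without *thia* replicate 3. The pseudogene *Cyp21a2-ps* was 97.7% identical to the *Cyp21a1* coding sequence over 1365 aligned bases, and 8.44% of the stretches of 100 bases in *Cyp21a1* were found in it as well. The pseudogene *Tnxa* overlaps the end of *Cyp21a1* on the opposite strand. Neither pseudogene was used here. The *Cyp21a1* counts are uncertain for these reasons, by an amount that was not measured, since mates of paired reads may place some of these reads.

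*Mc2r*, on chromosome 18 from 68406907 to 68429320, encodes the ACTH receptor. In F1 its level was 2.98, 3.48 and 3.00 CPM in control pools and 2.45, 3.69 and 2.75 CPM in *thia* pools, so the *thia* pools lay on both sides of the controls. The log2 fold change was -0.08 (SE 0.21). In F3 the level was 2.14, 2.59 and 3.53 CPM in control and 5.25, 2.96 and 4.75 CPM in *thia* pools. Only *thia* replicate 2 lay within the control range, and the log2 fold change was 0.65 (SE 0.29). In F1, the receptor thus lay on both sides of its controls where both enzymes were lower in each *thia* pool, and the difference between the genes was not tested. *Mrap*, the accessory protein that *Mc2r* needs to reach the cell surface, is named here after its values were seen. Its log2 fold changes were -0.12 (SE 0.18) in F1 and 0.67 (SE 0.21, edgeR adjusted p = 0.149) in F3, where each *thia* pool was above each control pool.

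**Figure D2:**
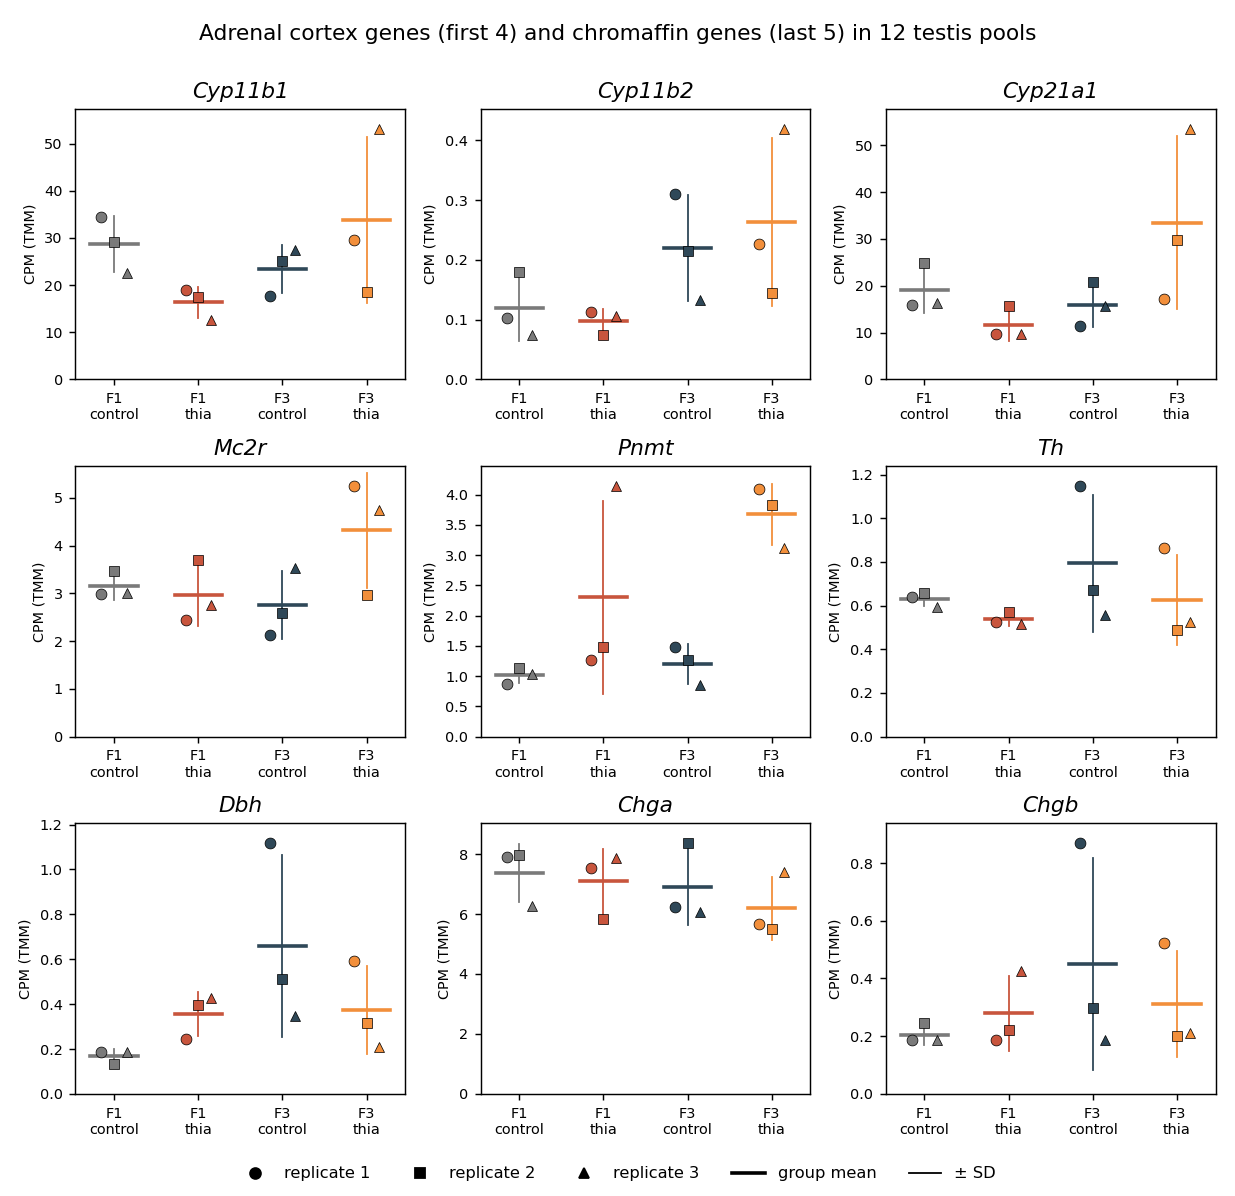
Level of each adrenal gene in the 12 testis pools, in CPM scaled by TMM, with a separate vertical axis from 0 for each gene. Symbols mark the replicate number, thick lines the group mean and thin lines ± SD of 3 pools. *Cyp11b1* and *Cyp21a1* are lower in each F1 *thia* pool than in each F1 control pool, and *Pnmt* is higher in each *thia* pool than in each control pool of its generation, with 3.11 to 4.09 CPM in F3 *thia*.

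The summed cortex level, in CPM over the 4 genes, was 53.5, 57.69 and 42.1 in F1 control and 31.23, 36.9 and 25.16 in F1 *thia* pools, a log2 ratio of means of -0.72. In F3 it was 31.56, 48.65 and 46.95 in control and 52.29, 51.57 and 111.8 in *thia* pools, a log2 ratio of 0.76. The sum lay above all controls in the F3 *thia* pools, but replicates 1 and 2 exceeded the highest control by a few CPM only. Without *thia* replicate 3 the ratio was 0.29. The 2 enzymes made up most of these sums.

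The cortex genes were also set against *Cyp11a1* in the same pool, which cortex and Leydig cells share. Per 1000 CPM of *Cyp11a1*, *Cyp11b1* stood at 36.75, 28.54 and 27.53 CPM in F1 control and at 27.15, 21.39 and 12.21 CPM in F1 *thia* pools. The groups did not overlap in this ratio, though *thia* replicate 1 lay just under the lowest control. In F3 the ratio was 30.59 to 33.76 in control pools, and 26.45, 25.39 and 41.91 in *thia* pools, which lay on both sides of the controls. For *Cyp21a1* the ratio was 17.04 to 24.3 in F1 control, 9.39 to 19.17 in F1 *thia* and 19.35 to 25.3 in F3 control pools. In F3 *thia* it was 15.29, 40.63 and 42.21, so replicates 2 and 3 were above and replicate 1 below the F3 controls. *Mc2r* kept between 2.67 and 4.68 CPM per 1000 CPM of *Cyp11a1* in all 12 pools, and the groups overlapped in both generations.

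**Figure D3:**
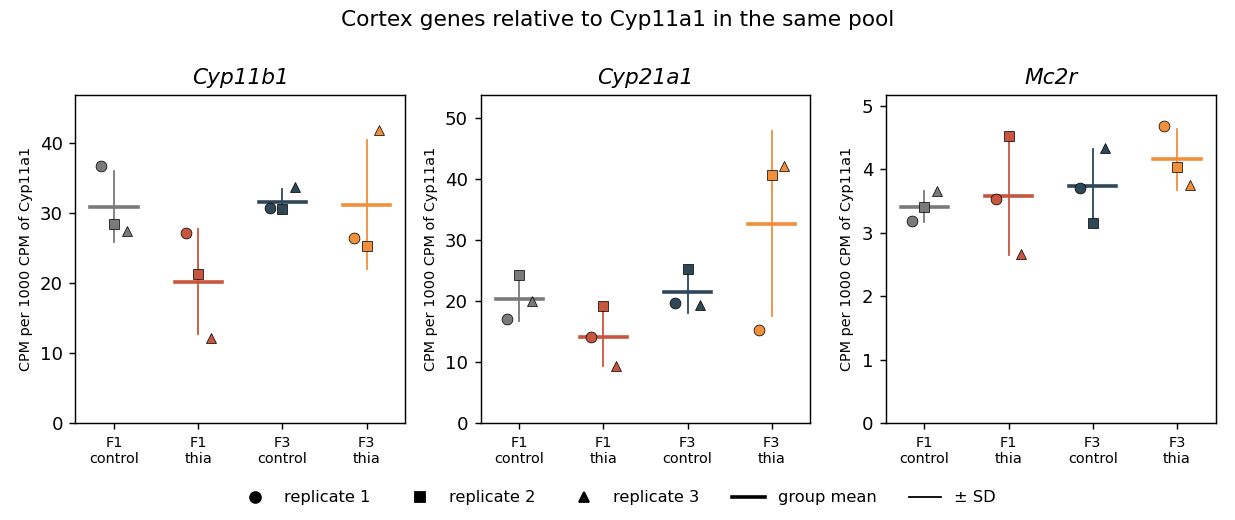
*Cyp11b1*, *Cyp21a1* and *Mc2r* in CPM per 1000 CPM of *Cyp11a1* in the same pool, with symbols for the replicate, thick lines for group means and thin lines for ± SD of 3 pools. *Cyp11b1* is 27.53 or more in F1 control pools and 27.15 or less in F1 *thia* pools, and in F3 *thia* the *Cyp21a1* ratio spans 15.29 to 42.21.

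The ratio of the 2 enzymes varied between pools. *Cyp21a1* over *Cyp11b1*, as a ratio of CPM, ran from 0.464 in F1 control replicate 1 to 1.6 in F3 *thia* replicate 2. The latter pool had the second-lowest *Cyp11b1* level of its generation and a *Cyp21a1* level above all F3 controls. The next highest ratio was 1.007, in F3 *thia* replicate 3, and the other 10 pools lay at 0.897 or below. F3 *thia* replicate 2 is also the pool that stood apart over all genes. Without it, the F3 log2 fold changes were 0.82 for *Cyp11b1*, 1.15 for *Cyp21a1*, 0.85 for *Mc2r* and 1.58 for *Pnmt*, and that of the cortex sum was 0.95.

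For the chromaffin genes, 4 of the 9 members had a promoter in the RefSeq table used here (GRCm38.p6): *Th*, *Dbh*, *Chga* and *Chgb*. They are shown because 3 of them hold a cAMP response element or a variant of it, which the choice of members did not use. The gene starts of this table are RefSeq's and differ from those of the gene spans given in the text, which are GENCODE's and reach further upstream for *Th*, *Chgb* and *Dbh*, and less far for *Chga*. The 300 bases from 250 before to 50 after the RefSeq start were searched on both strands for TGACGTCA, the palindromic cAMP response element, and for TGACGTAA, which reads TTACGTCA on the other strand. The stretches of 120 bases printed have the motif in capitals. They are, in order, chr7:142899977-142900096 on the minus strand, chr2:132781514-132781633, chr12:102554841-102554960 and chr2:27165437-27165556, the last 3 on the plus strand.
Th: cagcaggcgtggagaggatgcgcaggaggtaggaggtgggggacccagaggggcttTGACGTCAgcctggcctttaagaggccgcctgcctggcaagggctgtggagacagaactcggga
Chgb: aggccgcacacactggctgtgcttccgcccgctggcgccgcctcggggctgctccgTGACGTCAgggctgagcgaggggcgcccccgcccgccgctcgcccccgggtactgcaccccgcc
Chga: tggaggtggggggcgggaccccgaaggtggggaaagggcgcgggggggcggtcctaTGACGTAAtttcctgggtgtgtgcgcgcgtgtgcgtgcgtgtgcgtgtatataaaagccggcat
Dbh: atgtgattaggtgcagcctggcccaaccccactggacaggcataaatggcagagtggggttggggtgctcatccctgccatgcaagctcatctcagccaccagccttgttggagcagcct

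TGACGTCA began 45 bases before the RefSeq start of *Th* and 72 bases before that of *Chgb*, and TGACGTAA began 44 bases before that of *Chga*. The *Dbh* window held neither. Of all 32851 promoters in the table, 1.79% held TGACGTCA and 0.499% held TGACGTAA. Since the windows are shown for their matches, these shares are given for scale and are no test of enrichment. A match describes the letters of the window and is no measure of binding. Among these 4 genes, *Chga* alone was in the middle tier of levels.

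*Pnmt* encodes the enzyme that turns noradrenaline into adrenaline, the last step of the pathway, and lies on chromosome 11 from 98386450 to 98388181 on the plus strand. In F1, its level was 0.869, 1.13 and 1.04 CPM in control pools and 1.27, 1.49 and 4.14 CPM in *thia* pools. Each *thia* pool was above each control pool, with *thia* replicate 3 far above the rest. The log2 fold change of 1.21 (SE 0.42) was 0.46 without that pool. In F3, control pools had 1.49, 1.27 and 0.85 CPM and *thia* pools 4.09, 3.83 and 3.11 CPM. The F3 groups were well apart, at 1.20 ± 0.32 and 3.68 ± 0.50 CPM (SD, n = 3 each), and the log2 fold change of 1.61 (SE 0.25) ranged from 1.42 to 1.79 with 1 library left out. In counts, this was 32 to 48 per F3 control and 133 to 208 per F3 *thia* pool. The genes next to *Pnmt* had smaller fold changes in F3. *Stard3* and *Pgap3*, on either side, had F3 log2 fold changes of 0.01 (SE 0.10) and 0.12 (SE 0.12), and *Tcap*, between *Stard3* and *Pnmt*, had -0.18 (SE 0.51). In F1, *Tcap*, a muscle gene, did not pass the low-count filter. Its level was 0.037 to 0.310 CPM in control and 0.137 to 3.00 CPM in *thia* pools. The highest *Tcap* level was in *thia* replicate 2, where *Pnmt* was at 1.49 CPM. Over all pools of both generations, *Tcap* had 1 to 121 counts per pool. Whether the *Pnmt* values depend on its neighbours was not tested.

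The enzymes upstream of *Pnmt* followed another order. *Th* encodes tyrosine hydroxylase, the rate-limiting step, and lies on chromosome 7 from 142892752 to 142931128. Its level was 0.641, 0.656 and 0.593 CPM in F1 control and 0.524, 0.570 and 0.517 CPM in F1 *thia* pools, from 16 to 40 counts each. The F1 groups did not overlap, with a log2 fold change of -0.22 (SE 0.27). In F3 the level was 1.15, 0.674 and 0.558 CPM in control and 0.863, 0.489 and 0.524 CPM in *thia* pools, which overlapped. The F3 log2 fold change of -0.33 (SE 0.37) became 0.02 without control replicate 1.

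*Dbh*, on chromosome 2 from 27165233 to 27183200, encodes dopamine beta-hydroxylase, which makes noradrenaline. It was the member with the largest span over the 12 pools, 8.51-fold. In F1 its level was 0.186, 0.131 and 0.185 CPM in control and 0.243, 0.397 and 0.426 CPM in *thia* pools. All F1 *thia* pools were higher, at 13 to 28 counts against 5 to 9, and the log2 fold change was 1.12 (SE 0.40). In F3 it was 1.12, 0.512 and 0.345 CPM in control and 0.591, 0.316 and 0.210 CPM in *thia* pools. The F3 groups overlapped, and the log2 fold change was -0.83 (SE 0.55), or -0.23 without control replicate 1.

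*Chga* and *Chgb* encode chromogranin A and B, proteins of the dense core granule matrix. *Chga*, on chromosome 12 from 102554969 to 102565028, was the steadiest of the 9 genes, between 5.49 and 8.36 CPM in all pools, a 1.52-fold span. Its log2 fold changes were -0.04 (SE 0.17) in F1 and -0.15 (SE 0.20) in F3. *Chgb*, on chromosome 2 from 132781278 to 132795079, was between 0.185 and 0.868 CPM, from 5 to 28 counts, with *Chga* over *Chgb* from 7.18 to 42.44. The lowest of these ratios were in F3 control replicate 1 and F3 *thia* replicate 1, the pools with the highest *Chgb*. The log2 fold changes of *Chgb* were 0.46 (SE 0.43) in F1, which was -0.03 without *thia* replicate 3, and -0.51 (SE 0.65) in F3, which was 0.35 without control replicate 1.

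The summed level of *Th*, *Dbh* and *Chgb* was between 0.943 and 1.98 CPM in 11 pools and 3.13 CPM in F3 control replicate 1, which had the highest level of each of the 3. *Pnmt* did not share that order. F3 *thia* replicates 2 and 3 had sums of 1.01 and 0.943 CPM, among the lower ones, with 3.83 and 3.11 CPM of *Pnmt*. The ratio of *Pnmt* to *Th* plus *Dbh* was 1.05 to 1.44 in F1 control and 1.54 to 4.39 in F1 *thia* pools, and 0.658 to 1.07 in F3 control and 2.81 to 4.75 in F3 *thia* pools. It was higher in every *thia* pool than in every control pool of its generation. The summed level of all 5 chromaffin genes, most of it *Chga*, was 8.02 to 13.39 CPM and overlapped between control and *thia* in both generations.

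**Figure D4:**
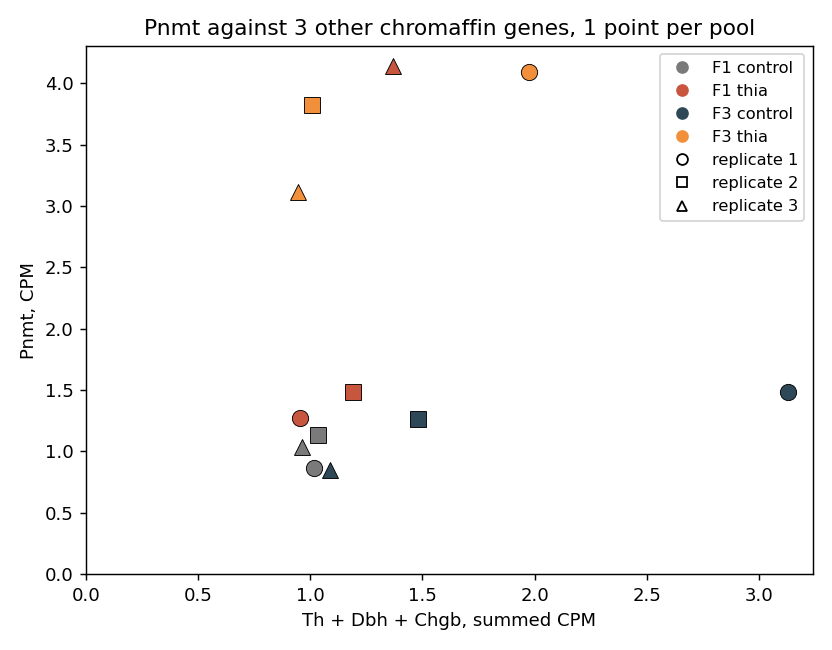
*Pnmt* in CPM against the summed CPM of *Th*, *Dbh* and *Chgb*, both on linear axes from 0, with 1 point per pool, colour for the group and shape for the replicate. The 3 F3 *thia* pools and F1 *thia* replicate 3 lie at 3.11 CPM of *Pnmt* or more, whereas F3 control replicate 1, with the highest sum of 3.13 CPM, has 1.49 CPM of *Pnmt*.

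Over all genes tested in F1, an unadjusted p under 0.05 was reached by 4.63% with a higher and 4.13% with a lower level in *thia* testis, and 6.55% of genes had all *thia* pools above and 8.45% all below the control pools. Of the 8 members tested, 2 were higher (*Pnmt*, *Dbh*) and 2 lower (*Cyp11b1*, *Cyp21a1*) at that p, 2 had all *thia* pools above (the same pair) and 3 all below (with *Th*). edgeR called 0 of the members in F1 after adjustment, and DESeq2 called *Cyp11b1* and *Cyp21a1* as lower, where its background was 0.525% lower and 0.488% higher. In F3 the background was 11.0% higher and 10.0% lower at that p, 13.4% with all *thia* pools above and 13.9% with all below. Of the 8 members, 2 were higher at that p (*Pnmt* and *Cyp21a1*), none was lower, and only *Pnmt* had groups apart. edgeR called 0 members in F3 and DESeq2 called *Pnmt*, with 9.17% of its genes higher and 5.70% lower, and DESeq2 gave no adjusted p for *Th*, *Dbh* and *Chgb*. For the difference between generations, 3 of the 8 members had an unadjusted p under 0.05, where 14.0% of genes did, and edgeR called none of them, with 0.00510% of genes called, whereas DESeq2 called *Cyp21a1* as higher in F3, where its background was 2.85% higher and 1.89% lower. Since the members were chosen with these contrasts known, nothing is read from these shares.

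Related genes outside the 9 were counted by list. These lists too were written with earlier results of these data known, and their counts are not independent evidence. The background of each count below, for fits with all pools, is the share over all genes. At an unadjusted p under 0.05 it was 4.63% higher and 4.13% lower in F1, and 11.0% higher and 10.0% lower in F3. For DESeq2 calls it was 0.488% higher and 0.525% lower in F1, and 9.17% higher and 5.70% lower in F3. The 12 genes of the steroid pathway that cortex and Leydig cells share, from *Nr5a1* and *Star* to *Cyp17a1*, had a median log2 fold change of -0.01 in F1, with none at an unadjusted p under 0.05 in edgeR and none called by either tool, although 3 were lower at that p without *thia* replicate 3. In F3 all 12 had fold changes above 0, with a median of 0.51 against 0.00 over all genes tested. Of these, 8 were higher at an unadjusted p under 0.05 (background 11.0%), edgeR called none, and DESeq2 called 7 as higher. *Scarb1*, which takes up cholesterol esters, had 496 ± 123.4 CPM in F3 control and 1111 ± 360.8 CPM in F3 *thia* testis (SD, n = 3 each), a log2 fold change of 1.16 (SE 0.26, edgeR adjusted p = 0.105). *Star* had a log2 fold change of 1.09 (SE 0.30, edgeR adjusted p = 0.126) and *Cyp17a1*, which leads to androgens, one of 1.07 (SE 0.29, edgeR adjusted p = 0.125). Without *thia* replicate 2, edgeR called 8 of the 12 as higher, with 11 at an unadjusted p under 0.05. In that fit it called 802 of all genes as higher and 492 as lower, and 4230 had such a p in either direction. Of the 12, 5 were higher at that p without control replicate 1 or *thia* replicate 3. Over all genes, 2249 and 2611 had such a p in these fits, in that order and in either direction. In the difference between generations, 8 of the 12 had an unadjusted p under 0.05 and a higher effect in F3. Of all 19626 genes tested, 1557 did. For these 12, edgeR called none and DESeq2 called 3, where it called 2.85% of all its genes as higher.

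The 6 genes listed for fetal Leydig cells went the same way, but whether each is specific to these cells was not tested. In F1 none had an unadjusted p under 0.05 (median log2 fold change -0.03). In F3 all 6 fold changes were above 0 (median 0.61). At an unadjusted p under 0.05, 3 were higher, *Lhcgr*, *Thbs2* and *Pdgfra* (background 11.0%). *Hsd17b3* had an F3 log2 fold change of 0.12 (SE 0.21). edgeR called none of the 6 in F3, and DESeq2 called 3. Without *thia* replicate 2, edgeR called 3 of them as higher, where it called 802 of all genes as higher. *Lhcgr*, the LH receptor, had 23.83 ± 1.95 CPM in F3 control and 60.39 ± 26.32 CPM in F3 *thia* testis, and *Thbs2* had an edgeR adjusted p of 0.101, the smallest of the listed genes in F3. *Insl3*, the main peptide hormone of Leydig cells, overlapped between the F3 groups at 76.84 ± 18.87 and 132.1 ± 75.51 CPM. The summed steroid pathway level was 3236 to 5013 CPM in F3 control and 5569 to 9577 CPM in F3 *thia* pools, highest in *thia* replicate 3, the pool with the highest cortex sum. Its part in the F3 cortex values was not tested beyond the ratios to *Cyp11a1* above. In F1 the steroid pathway sum overlapped, at 4444 to 5339 CPM in control and 3795 to 5687 CPM in *thia* pools. The highest of these was *thia* replicate 3, the pool with the lowest cortex sum of all 12 at 25.16 CPM.

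Of 16 tested cortex partners, genes that act with the cortex enzymes or mark cortical zones, 1 had an unadjusted p under 0.05 in F1, *Nr0b1*, a repressor of steroid genes (log2 fold change 0.27, SE 0.12). Neither tool called any of them in F1, and the count was 0 without control replicate 1 or 2 or *thia* replicate 1 or 3. In F3, 4 were higher and 2 lower at that p, and DESeq2 called 3 as higher and 2 as lower. edgeR called none, but 1 as higher and 2 as lower without *thia* replicate 2. In that fit it called 802 of all genes as higher and 492 as lower. *Ren1*, renin, was higher in all F3 *thia* pools, at 281.2 ± 51.14 against 185 ± 26.71 CPM (edgeR adjusted p = 0.114). *Hsd3b6*, a 3-beta-hydroxysteroid dehydrogenase of the zona glomerulosa, was lower in all F3 *thia* pools, at 5.24 ± 1.13 against 13.44 ± 4.78 CPM (edgeR adjusted p = 0.105). *Rspo3*, a Wnt signal of the adrenal capsule, was lower there as well, with a log2 fold change of -0.55 (SE 0.17, edgeR adjusted p = 0.142). *Akr1b7*, an aldo-keto reductase abundant in mouse adrenal cortex, overlapped in both generations, with log2 fold changes of 0.16 and 0.39.

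Among 8 other genes of catecholamine synthesis and storage, 2 were higher in F1 *thia* testis at an unadjusted p under 0.05, and neither tool called any. *Ddc*, which makes dopamine from L-dopa, had 5.73 ± 0.35 CPM in F1 control and 7.98 ± 0.35 CPM in F1 *thia* pools (log2 fold change 0.49, SE 0.14, edgeR adjusted p = 0.45). *Slc6a2*, the noradrenaline transporter, had 0.604 ± 0.065 and 1.03 ± 0.10 CPM (log2 fold change 0.79, SE 0.26, edgeR adjusted p = 0.513). In F3 none of the 8 reached an unadjusted p under 0.05 and 7 of 8 fold changes were below 0, with a median of -0.14, while *Pnmt* was higher in all F3 *thia* pools. For *Ddc* the difference between generations was -0.91 (log2), at an unadjusted p of 0.0093 by edgeR, which DESeq2 called and edgeR did not.

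Of 8 tested dense core granule genes, *Pcsk1n*, a prohormone convertase inhibitor, was higher in all *thia* pools in both generations, with log2 fold changes of 0.79 (SE 0.21, edgeR adjusted p = 0.446) in F1 and 0.67 (SE 0.21, edgeR adjusted p = 0.147) in F3. It was the only one of the 8 at an unadjusted p under 0.05 in either, and edgeR called none, while DESeq2 called it in F3 only. Among the sympathoadrenal transcription factors, 3 of 8 tested were higher in F1 at that p, namely *Gata3*, *Tfap2b* and *Gata2*, and neither tool called any. That count of 3 was 0 without control replicate 2 and 1 without *thia* replicate 1 or *thia* replicate 2. In F3, 1 of 9 tested, *Hand2*, was lower at that p (log2 fold change -0.68, SE 0.18, edgeR adjusted p = 0.122), and DESeq2 called it. Without *thia* replicate 2 edgeR called it too, where it called 492 of all genes as lower.

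**Figure D5:**
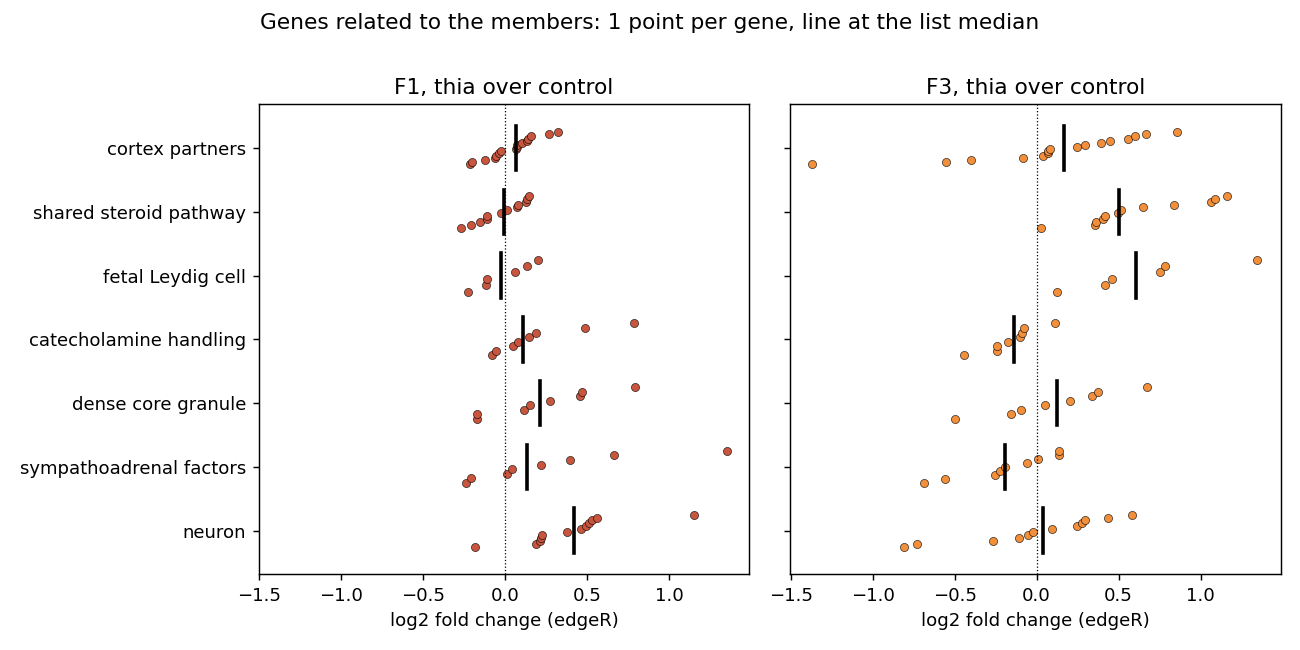
Log2 fold changes of *thia* over control in F1 (left) and F3 (right) for related genes outside the 9 members, on a common horizontal axis, with 1 point per gene tested and a line at each list's median. The shared steroid pathway has its median at -0.01 in F1 and 0.51 in F3, and the catecholamine genes at 0.11 and -0.14.

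Markers of other tissues that a dissected pool could hold were read beside these values. Neuron markers summed to 52.66 to 57.78 CPM in F1 control and 58.73 to 68.31 CPM in F1 *thia* pools, with no overlap, and to 60.08 to 72.66 CPM in F3 pools, which overlapped. Of 12 neuron genes, *Stmn3* was higher in F1 at an unadjusted p under 0.05, and in F3 *Syt1* was higher and *Stmn2* lower at that p, where DESeq2 called both and edgeR called none in either generation. Sertoli cell markers had 0 of 6 in F1 and 1 higher in F3 (*Amh*), called by neither tool. Kidney markers summed to 9.23 to 13.02 CPM in F1 control and 12.44 to 17.33 CPM in F1 *thia* pools, which overlapped, and to 11.94 to 19.31 CPM in F3 control and 9.81 to 11.08 CPM in F3 *thia* pools, with no overlap. The highest sum was in F3 control replicate 1, the pool with the highest *Th*, *Dbh* and *Chgb*. The tubule gene *Umod* was at or near 0, with 0 to 6 counts. At an unadjusted p under 0.05, 1 of 7 kidney genes was higher (*Cdh16*) and 1 lower (*Nphs1*) in F1, and 1 of 6 lower in F3 (*Cdh16*), which DESeq2 alone called. Skeletal muscle markers summed to 66.76 to 260 CPM in 11 pools and to 597 CPM in F1 *thia* replicate 2, with 3 of 10 genes higher in F1 and 1 higher and 2 lower in F3 at that p. edgeR called none of the muscle genes, and DESeq2 called none in F1 and 1 higher and 2 lower in F3. Without F1 *thia* replicate 2, the F1 muscle count was 0, and the log2 fold changes were -0.86 for *Cyp11b1*, -0.96 for *Cyp21a1*, 1.44 for *Pnmt* and 1.05 for *Dbh*. With 1 library left out, the numbers of genes higher at that p ranged over 1 to 4 for neuron and 0 to 8 for muscle markers in F1, and over 0 to 3 for Sertoli cell markers in F3. The part of these tissues in the adrenal gene values was not tested.

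The genes whose level over the 12 pools was most like the cortex sum were ranked by Pearson's r of log2(CPM + 0.1). The pools share their groups, so r is given as a description. *Plekha4* came first (r = 0.87, Spearman's rho = 0.69), followed by *Card9* (r = 0.84), *Slc25a35* (0.83), *Fitm2* (0.83), *Gnpda1* (0.82), *Msmo1* (0.81), *Pyroxd2* (0.81) and *D6Ertd527e* (0.81). Without F3 *thia* replicate 3 these values of r were 0.58 to 0.73. Only *Msmo1*, a cholesterol synthesis enzyme at 144.2 to 275.7 CPM, was abundant. *Cyp11b1* and *Cyp21a1*, which make up most of this sum, had r = 0.92 and 0.93 with it, or 0.86 and 0.85 without that pool. Of the chromaffin genes, none was close to the cortex sum, with r from -0.43 for *Dbh* to 0.09 for *Pnmt*, and *Mc2r* had r = 0.66.

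For the chromaffin sum, the genes most alike were *Mettl24* (r = 0.92, rho = 0.93), *Ms4a15* (0.90), *Folr1* (0.89), *Emc3* (0.89), *Hebp2* (0.88), *Ifi27* (0.87), *Arhgdig* (0.84) and *Rnu7* (0.84). None of these 8 is in the lists used here. Of the members, *Pnmt* was closest to this sum (r = 0.73), and *Chga*, which made up most of it and varied little, had r = 0.36. *Th* had r = 0.19 and the cortex enzymes r of -0.06 and 0.06. Without F1 *thia* replicate 3, r was 0.64 for *Pnmt*, 0.25 for *Chga*, 0.40 for *Th*, 0.34 for *Cyp11b1* and 0.37 for *Cyp21a1*.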

How the data were processed

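RNA was sequenced in 12 pools of E15.5 testes, 3 per group. According to the sources used here, the authors extracted RNA with the RNeasy plus kit, made directional paired-end libraries, mapped reads with HISAT2 2.1.0 to mm10 and counted them with featureCounts on refGene. The deposited values are raw counts for 35976 symbols. Whether pairs or single reads were counted, and with which strand setting, is not given in the sources used here.

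Counts were analysed in R 4.3.3. Genes were kept by filterByExpr of edgeR 4.0.16 (minimum count 10), scaled by TMM, and compared within each generation by its quasi-likelihood test with Benjamini-Hochberg adjustment over all genes tested, at 0.15 in F1 and 0.1 in F3. The difference between generations was tested over the 12 pools at 0.1. SE was derived from that test. Alternatives were the Wald test of DESeq2 1.42.0, its size factors, no filter, 1 fit of all pools, a replicate block and leaving out each library. The code was tested on simulated data. Exon lengths came from GENCODE M21, in which 26705 symbols matched.

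The members and gene lists were chosen with earlier results of these data known. Named genes were all members, at most 3 genes per list with the smallest p in each generation, the 2 most abundant per list and the 8 most alike to each sum. *Mrap* was added after its values were seen. Neighbouring and overlapping genes were named by position, and *Umod* as a defining marker of its list. Some genes and 1 marker list are not reported here.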

Additional observations from a re-analysis of the deposited data

How the results depend on the processing

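The number of genes called depended on the tool and filter. In F1 it was 2 with edgeR, 243 without a filter, 193 with DESeq2 and 0 with all pools in 1 fit, and 0 to 20 with 1 library left out. In F3 it was 0, against 569, 2262 and 1936 in that order, and 0 to 1294 with 1 library left out, the highest without *thia* replicate 2. For the difference between generations it was 1, against 638 with DESeq2 and 0 to 4 with 1 library left out. The cause was not tested. Replicate numbers gave no steady pairing of the pools. Same-numbered control and *thia* pools had deviations with r of -0.052, -0.045 and 0.028 in F1 and 0.218, -0.403 and -0.263 in F3. Between pools of different numbers, r ran from -0.072 to 0.113 in F1 and from -0.403 to 0.495 in F3. Whether pools were matched under other numbers was not tested. With the replicate number as a block, 3 genes were called in F1, 0 in F3 and 0 for the difference.

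The log2 ratio of the chromaffin sum in F1 was 0.17, 0.44 as the median of the genes' own ratios and -0.039 (without *thia* replicate 3) to 0.30 with 1 library left out. In F3 it was 0.16, or -0.34 as that median. The cortex ratio kept its sign in both generations, at -0.86 to -0.50 in F1 and 0.29 to 0.95 in F3. Of 176 alternatives for single members, 168 stayed within 1 SD with the same sign. The other 8 moved by more or changed sign, 7 of them by a change of sign, all among *Mc2r*, *Pnmt*, *Th*, *Chga* and *Chgb*. This SD is the spread between replicates, so for genes with a wide spread large moves stayed within it. In F3, *Cyp11b1* went from 0.53 to 0.04 without *thia* replicate 3, and *Dbh* from -0.83 to -0.23 without control replicate 1. The tally is therefore no measure of robustness. *Cyp11b2*, *Dbh*, *Chgb* and *Th* rest on 2 to 40 counts per pool, which limits their precision.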
